A study of Mus musculus with 8 samples.

Results

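Mouse hematopoietic progenitors that lacked Cbfb were compared across the step from LSK to GMP, on 4 of the 8 expression arrays of the series. The rule took the 2 KO GMP arrays against the 2 KO LSK arrays and kept every row of the deposited value table that carried exactly 1 gene symbol, 21789 of 35556 rows, which name 19938 genes. KO mice carried Vav1-iCre with both Cbfb alleles floxed, written Vav1-iCre x Cbfb(F/F), and the controls, called Het, carried this Cre too but kept 1 intact allele beside 1 floxed one, Vav1-iCre x Cbfb(F/+). Vav1-iCre is active throughout the blood lineage, in stem cells as well as in their progeny. All mice were 7 weeks old, on a C57BL6 background (backcross N12), and there were 2 mice of each genotype. LSK and GMP cells, 200000 of them, were sorted separately from bone marrow at a stated purity above 98%, so that LSK and GMP cells of a genotype came from the same 2 mice, though the labels do not say that a shared replicate number marks a shared mouse. The test treats the arrays as independent, and where a fit with the replicate number as a block changes a call, its adjusted p is given beside the result. No mouse without Cre or with 2 intact alleles was among the samples, so a value in Het is not a wild-type value. The 4 Het arrays, 2 of LSK and 2 of GMP, share no array with the KO comparison and give the same step in the control.

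LSK cells, named for the absence of lineage markers and the presence of Sca-1 and Kit, hold the stem cells and the multipotent progenitors of the marrow. GMP, the granulocyte-macrophage progenitor, has lost Sca-1, keeps Kit and CD34 and has gained the Fc receptors CD16/32; it makes neutrophils and monocytes. On this path stem, lymphoid and megakaryocyte-erythroid genes are switched off, the C/EBP and Gfi1 transcription factors are switched on, and the proteases of the primary granules are made first, those of the secondary granules later. Cbfb is the subunit that stabilises the DNA binding of the Runx proteins, and Runx1 has known sites at several myeloid genes.

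Each value is a log2 RMA level, so a difference of 1 is a 2-fold difference. Array medians lay between 4.92 and 5.09, and over all rows the 2 arrays of a group correlated at 0.990 to 0.995. KO GMP correlated with KO LSK at 0.980 to 0.982, and Het GMP with Het LSK at 0.965 to 0.970. In KO LSK 149 rows differed by more than 1 between the 2 arrays, against 62 in Het LSK, 39 in Het GMP and 38 in KO GMP. The first KO LSK array had lower levels than the second for all 24 measured mitosis genes and all 24 measured DNA replication genes. The Cbfb row lay at 6.93 and 6.98 in KO LSK and 6.48 and 6.96 in KO GMP, and at 7.56 and 7.55 in Het LSK and 7.53 and 7.65 in Het GMP. Every KO value was below every Het value; it is not known here whether the probes of this row lie in the deleted part of the gene, so the row is a weak check of the genotype. Of the markers of the sort, which are no finding, Fcgr3, a CD16/32 gene, rose by 2.60 ± 0.27 in KO and by 4.43 in Het, Kit fell by 0.84 and Cd34 by 1.28 in KO, and Ly6a, the gene of Sca-1, was not analysed here. With 2 mice a genotype, a p-value speaks only of the spread among the arrays.

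Granule genes, sphingolipid enzymes and lectin receptors were among the largest rises between the KO populations, and GTPases of the Gimap family and Cd200 receptors among the largest falls. Of the 21789 rows, 1318 (6.05%) were called at a Benjamini-Hochberg adjusted p under 0.05 in limma, 797 (3.66%) higher in KO GMP and 521 (2.39%) lower. A change of at least 2-fold was seen in 348 of the higher and 172 of the lower rows. The same step in Het gave 3813 called rows (17.5%), 1721 higher (7.90%) and 2092 lower (9.60%). The KO count rests on few arrays: it was 579 without the first KO GMP array, 616 without the second, and 691 when the KO arrays were fitted alone.

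Among the 15 largest rises were Clec12a, Ms4a3, Elane, Prss57, Igsf6 and Nkg7, of the list called primary granule genes, and the neutrophil products Hp and Pglyrp1. That list is mixed. It also holds genes whose products are not granule proteins, such as the receptor Clec12a, the membrane proteins Ms4a3 and Igsf6, and the enzymes Hk3 and Alas1. The largest rise of all was that of Atp8b4, a phospholipid-transporting ATPase, with 4.15 and 3.91 in KO LSK and 9.57 and 9.31 in KO GMP. The difference of 5.41 ± 0.17 (SE of the fit, 2 arrays a group, as throughout) was 42.6-fold, adjusted p = 3.32e-06. In Het, Atp8b4 rose by 2.65, from a higher LSK level of 7.89 and 7.46. B4galt6, which makes lactosylceramide, rose by 4.73 ± 0.20, and Sgms2, a sphingomyelin synthase, rose by 4.07 ± 0.14, from KO LSK values of 4.04 and 3.61 and of 4.01 and 3.89. Mgam, an intestinal-type maltase known from granulocytes, rose by 4.62 ± 0.17, and the adhesion molecule Vcam1 by 4.56 ± 0.37. Clec4b2, a C-type lectin with close relatives in the same gene cluster, rose by 4.05 ± 0.25, and Prg2, the eosinophil major basic protein, by 4.78 ± 0.63 from KO LSK values of 5.72 and 4.44.

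Of the 23 primary granule genes on the list, all 23 were measured and 17 rose in KO GMP, none fell. Their median difference was 2.32, where the median over all rows was -0.02. All 17 also rose in Het, where 19 of the 23 did. Without any 1 array the count stayed between 14 and 18.

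Elane, neutrophil elastase, had values of 7.37 and 6.88 in KO LSK and 11.76 and 11.70 in KO GMP. Both GMP arrays stood far above both LSK arrays, a rise of 4.61 ± 0.29 (24.4-fold, adjusted p = 4.48e-05), where Het rose by 4.69. Ms4a3, a membrane protein that marks cells entering the granulocyte and monocyte path, lay at 6.59 and 6.65 in KO LSK and 11.27 and 11.33 in KO GMP. Its rise of 4.68 ± 0.16 (adjusted p = 3.32e-06) stood beside 4.97 in Het, and the difference between the transitions was -0.29 ± 0.23 (adjusted p = 0.707). The other serine proteases followed. Prtn3, proteinase 3, gave 9.47 and 8.95 in KO LSK and 11.98 and 11.89 in KO GMP, a rise of 2.73 ± 0.18 against 2.77 in Het. Ctsg, cathepsin G, gave 9.01 and 8.31 in KO LSK and 12.25 and 12.10 in KO GMP, a rise of 3.52 ± 0.22. Prss57, a further protease of these granules, began lower, at 4.57 and 3.49 in KO LSK and 8.06 and 8.09 in KO GMP, and rose by 4.04 ± 0.31. In each of these 3 genes the LSK and GMP values did not overlap, which in KO held for 47.5% of all rows, counting both directions.

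Mpo, myeloperoxidase, the enzyme that makes hypochlorous acid, was already abundant before the step, with 10.58 and 9.94 in KO LSK and 12.62 and 12.55 in KO GMP. Its rise of 2.32 ± 0.19 (adjusted p = 1.64e-04) was 1.23 in Het, which started from 11.48 and 11.41 and ended at 12.65 and 12.70; the difference between the transitions was 1.10 ± 0.26 (adjusted p = 0.0797; called without the first KO LSK array). The KO and Het GMP values of Mpo lay together between 12.55 and 12.70, and the KO LSK values below the Het ones. Clec12a, an inhibitory lectin receptor, had the same shape: 5.38 and 4.40 in KO LSK and 9.93 and 9.76 in KO GMP, against 7.40 and 7.01 in Het LSK and 10.19 and 10.42 in Het GMP, with a difference between the transitions of 1.86 ± 0.40 (adjusted p = 0.0519). That p passed 0.05 without the first or without the second KO LSK array, and was 0.0294 with the replicate block. Nkg7, a granule membrane protein best known from cytotoxic cells, was called in that test. It lay at 5.74 and 6.38 in KO LSK and 9.88 and 10.03 in KO GMP, a rise of 3.89 ± 0.20, and at 9.71 and 9.52 in Het LSK and 11.36 and 11.37 in Het GMP, so that the KO rise was larger by 2.14 ± 0.28 (adjusted p = 0.00627), kept with each array left out in turn.

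Genes that serve the granule proteins rose with them. Alas1, the first enzyme of heme synthesis, on which myeloperoxidase depends, rose by 2.99 ± 0.13 from 7.40 and 7.24 in KO LSK and 10.43 and 10.19 in KO GMP, and by 3.09 in Het. Hk3, the myeloid hexokinase, rose by 2.41 ± 0.17, Rab27a, a GTPase of granule release, by 1.44 ± 0.12, and the protease inhibitors Slpi and Serpinb1a by 2.27 ± 0.22 and 1.31 ± 0.14. The gap of Slpi to Het was called with the replicate block (adjusted p = 0.0361). Fcnb, ficolin B, rose by 2.50 ± 0.40, Cd63, a tetraspanin of granule membranes, by 0.97 ± 0.16 and Plac8 by 0.99 ± 0.16; these 3 were not called without the first KO GMP array.

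Of the list, 6 genes were not called. Srgn, serglycin, the proteoglycan that packs granule proteases, was the same in all 4 KO arrays, between 11.18 and 11.24, and rose by 0.61 in Het. For Srgn the difference between the transitions was not called. Cst7, cystatin F, an inhibitor of the protease that activates elastase and cathepsin G, lay at 9.86 and 10.05 in KO LSK and 10.59 and 10.60 in KO GMP and at 8.93 and 8.43 in Het LSK and 11.14 and 11.09 in Het GMP. Its KO difference was 0.64 ± 0.17 (adjusted p = 0.0617; called without either Het LSK array, and at 0.0492 with the replicate block) and its Het rise 2.44, a gap of -1.80 ± 0.24 (adjusted p = 0.00648). Both KO LSK arrays were above both Het LSK arrays for Cst7, so the smaller step came with a higher start. Ctsc, the activating protease itself, differed by -0.16 ± 0.16, Lyz2, lysozyme, by 0.52 ± 0.28, Lyz1 by 0.25 ± 0.16, and Bpi stayed at the low end of the scale, between 2.49 and 2.70.

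**Figure D1:**
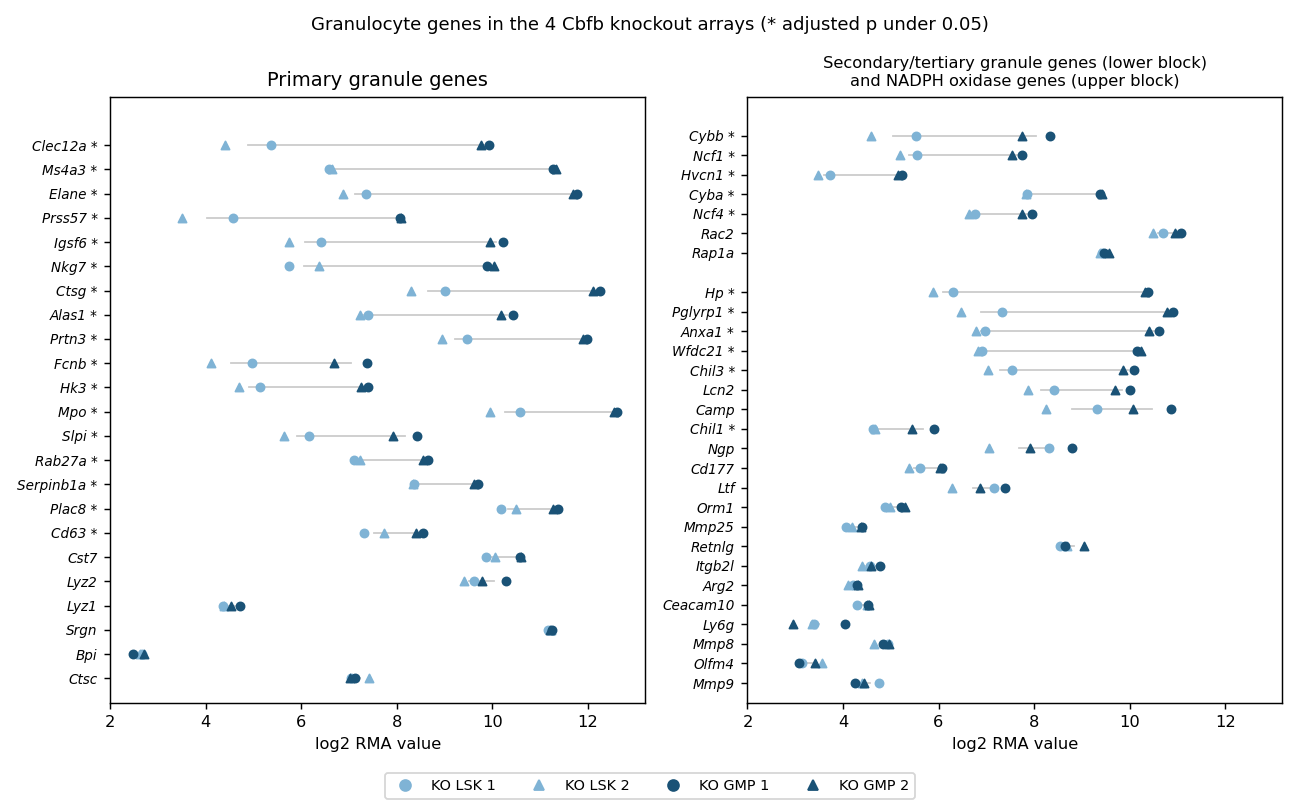
Levels of granulocyte genes in the 4 KO arrays on the log2 RMA scale; light symbols are KO LSK, dark symbols KO GMP, circles replicate 1 and triangles replicate 2, a grey line joins the group means and an asterisk marks an adjusted p under 0.05. The left panel holds the 23 genes of the primary granule list, where 17 rose. The right panel holds the 21 secondary and tertiary granule genes, where 6 rose, with the 7 oxidase genes above them.

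The stretches before the start sites of 5 genes are shown. These genes rose together in KO cells, which lack the partner of Runx, and each also rose in Het. They are the genes of the primary granule list with the largest KO rise among those with a RefSeq promoter entry (GRCm38.p6). Capitals mark TGTGGT or TGCGGT on either strand, the core hexamers that Runx proteins are known to bind. Each run is 250 bases, 5′ to 3′ on the gene's strand, and ends at the base before the start. Clec12a is at chr6:129349994-129350243 (+), Ms4a3 at chr19:11640852-11641101 (-), Elane at chr10:79886062-79886311 (+), Igsf6 at chr7:121074531-121074780 (-) and Nkg7 at chr7:43436888-43437137 (+).
Clec12a: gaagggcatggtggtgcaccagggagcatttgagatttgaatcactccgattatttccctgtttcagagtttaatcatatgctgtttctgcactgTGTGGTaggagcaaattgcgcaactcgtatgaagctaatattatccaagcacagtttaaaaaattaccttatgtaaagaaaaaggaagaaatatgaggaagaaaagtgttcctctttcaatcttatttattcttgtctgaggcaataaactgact
Ms4a3: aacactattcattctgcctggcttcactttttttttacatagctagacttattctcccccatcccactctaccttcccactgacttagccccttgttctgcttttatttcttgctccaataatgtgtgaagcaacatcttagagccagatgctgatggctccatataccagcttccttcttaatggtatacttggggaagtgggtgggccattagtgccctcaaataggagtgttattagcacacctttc
Elane: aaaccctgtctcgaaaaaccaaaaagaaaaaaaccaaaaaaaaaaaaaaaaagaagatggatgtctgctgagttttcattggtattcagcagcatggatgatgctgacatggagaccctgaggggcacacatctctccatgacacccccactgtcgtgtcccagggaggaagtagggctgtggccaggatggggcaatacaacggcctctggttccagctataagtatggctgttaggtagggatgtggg
Igsf6: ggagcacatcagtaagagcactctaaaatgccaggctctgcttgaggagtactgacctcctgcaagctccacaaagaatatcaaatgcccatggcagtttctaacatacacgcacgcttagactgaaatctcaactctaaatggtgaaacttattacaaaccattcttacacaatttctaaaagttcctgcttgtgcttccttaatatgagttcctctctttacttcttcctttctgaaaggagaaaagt
Nkg7: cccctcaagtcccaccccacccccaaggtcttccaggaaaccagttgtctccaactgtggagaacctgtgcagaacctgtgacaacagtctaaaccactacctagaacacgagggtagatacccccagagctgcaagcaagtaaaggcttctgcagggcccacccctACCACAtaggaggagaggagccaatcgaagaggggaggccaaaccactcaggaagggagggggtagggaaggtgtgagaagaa
A hexamer stood 155 bases before the start of Clec12a and 83 bases before that of Nkg7, and none was found in the windows of Ms4a3, Elane and Igsf6. Over the whole list, 10 of 25 windows of 21 genes (40.0%) held one. Of all 32851 RefSeq windows of this length, 6107 (18.6%) did. These shares only describe the windows. Some genes gave several windows, the list was chosen with earlier results of these data known, and the background was not limited to expressed genes. Whether the shares differ, and whether Runx has a part in the rises, was not tested. A match is a string of letters, and binding was not measured.

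The phagocyte oxidase, which makes superoxide in neutrophils, had most of its genes higher after this step without Cbfb. Of 7 measured genes 5 rose, none fell, with a median difference of 1.55; in Het 6 rose, and no gene was called in the difference between the transitions. Cybb, the catalytic membrane subunit, lay at 5.53 and 4.58 in KO LSK and 8.32 and 7.75 in KO GMP, a rise of 2.99 ± 0.40 (adjusted p = 0.00275) beside 2.95 in Het. Its partner Cyba was tighter, at 7.86 and 7.83 in KO LSK and 9.38 and 9.41 in KO GMP, a rise of 1.55 ± 0.11 beside 1.54. The cytosolic organisers Ncf1 and Ncf4 rose by 2.27 ± 0.15 and 1.14 ± 0.13, and the proton channel Hvcn1 by 1.59 ± 0.25, a call that was lost without the first KO GMP array. The GTPases Rac2 and Rap1a, which many blood cells use, differed by 0.41 ± 0.12 and 0.11 ± 0.13 and were not called.

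Genes of protein folding in the endoplasmic reticulum, where granule proteins are made, rose by smaller amounts but broadly: 18 of 24 rose, none fell, median 0.76. In Het 20 of 24 rose. Sdf2l1, a chaperone partner, lay at 7.61 and 7.77 in KO LSK and 9.37 and 9.63 in KO GMP and rose by 1.81 ± 0.15 (adjusted p = 2.18e-04). The disulfide isomerases P4hb and Pdia6 rose by 1.16 ± 0.12 and 1.08 ± 0.14, the lectin chaperone Calr by 0.98 ± 0.12. Ero1a, the oxidase that recharges the isomerases, rose by 1.12 ± 0.12, less than the 1.95 of Het, with a difference between the transitions of -0.83 ± 0.16 (adjusted p = 0.0378) that was lost when any 1 array was left out. The count of 18 fell to 7 without the second KO GMP array, to 10 without the first, and to 11 without the first KO LSK array or either Het GMP array. Of the lysosomal genes 8 of 23 rose, none fell (5 rose without the first KO GMP array): Gla, alpha-galactosidase, by 1.64 ± 0.13, the cathepsins Ctsb and Ctsz by 1.34 ± 0.15 and 1.13 ± 0.14, and Neu1, a sialidase, by 1.22 ± 0.17.

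Later granulocyte genes moved unevenly. Of 21 secondary and tertiary granule genes 6 rose, none fell, and the median difference was 0.41; in Het 9 rose. Hp, haptoglobin, lay at 6.30 and 5.88 in KO LSK and 10.38 and 10.31 in KO GMP, a rise of 4.26 ± 0.22 (19.1-fold, adjusted p = 1.47e-05) beside 4.19 in Het. Pglyrp1, a peptidoglycan-binding protein, lay at 7.34 and 6.46 in KO LSK and 10.90 and 10.78 in KO GMP, a rise of 3.94 ± 0.27, and Wfdc21, a small antiprotease-type protein, rose by 3.33 ± 0.27. In all 3 both GMP arrays stood above both LSK arrays. Such a separation, in either direction, was seen in 47.5% of all rows in KO. Anxa1, annexin A1, an inhibitor of neutrophil recruitment, rose by 3.63 ± 0.14 from 6.97 and 6.79 in KO LSK and 10.61 and 10.41 in KO GMP; its KO rise was larger than the 1.58 of Het by 2.05 ± 0.19 (adjusted p = 0.00207). Chil3 and Chil1, chitinase-like proteins, rose by 2.69 ± 0.63 and 1.03 ± 0.25, at adjusted p = 0.0407 and 0.0455, calls that were lost without either KO LSK or either KO GMP array and, for Chil1, without either Het GMP array.

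The genes that define the secondary granule were not called in KO with the arrays taken as independent. Nor was the limma difference between the transitions called for any of them (adjusted p = 0.940 for Camp and 0.973 for Lcn2). A KO step unlike that of Het was thus not shown for these genes. Ltf, lactoferrin, lay at 7.16 and 6.27 in KO LSK and 7.40 and 6.87 in KO GMP. Its LSK and GMP values overlapped, and the difference was 0.41 ± 0.66 (adjusted p = 0.8). Camp, the cathelicidin, lay at 9.32 and 8.25 in KO LSK and 10.87 and 10.08 in KO GMP, a difference of 1.69 ± 0.56 (adjusted p = 0.133), and Lcn2, lipocalin 2, at 8.42 and 7.87 in KO LSK and 10.01 and 9.69 in KO GMP, a difference of 1.70 ± 0.56 (adjusted p = 0.127). Ngp, the neutrophilic granule protein, differed by 0.66 ± 0.62, and the collagenase Mmp8 and gelatinase Mmp9 by 0.10 ± 0.49 and -0.23 ± 0.27. The standard errors of Ltf, Camp, Lcn2 and Ngp, between 0.56 and 0.66, include the spread of the Het arrays, because the fit shares 1 estimate over the 4 groups. In Het LSK, Ltf lay at 6.34 and 8.42, Camp at 8.74 and 10.48 and Ngp at 7.95 and 9.85. The list stood higher in the second than in the first array for 19 of 21 genes in Het LSK and likewise for 19 of 21 in Het GMP, by a median of 0.68 and 0.74; in KO 6 and 8 of the 21 did. With either Het LSK array left out Lcn2 was called, while Ltf, Camp and Ngp were not. With the replicate number as a block, both Camp (adjusted p = 0.00628) and Lcn2 (adjusted p = 0.0102) were called higher in KO GMP, and Ltf and Ngp were not.

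Of 24 mature neutrophil genes 7 rose and 2 fell, with a median difference of 0.40; in Het 11 rose and 1 fell. Trem3, an activating receptor, lay at 5.07 and 5.23 in KO LSK and 8.79 and 8.51 in KO GMP, a rise of 3.50 ± 0.17 (adjusted p = 1.30e-05) beside 4.28 in Het. Clec5a, a lectin receptor, rose by 3.33 ± 0.18, Mcemp1 by 3.20 ± 0.29, the glycoprotein Lrg1 by 3.01 ± 0.34 and Trem1 by 1.67 ± 0.19. S100a8 and S100a9, the calprotectin subunits, were near the top of the scale in all 4 KO arrays. S100a8 lay at 11.70 and 11.21 in KO LSK and 12.52 and 12.52 in KO GMP, a difference of 1.06 ± 0.28 (adjusted p = 0.0664), and S100a9 differed by 1.16 ± 0.32 (adjusted p = 0.0786). Both were called when either Het LSK array was left out, and with the replicate block at adjusted p = 0.0275 and 0.0181.

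The 2 falls were of genes that were high in KO LSK. Cxcr2, the chemokine receptor that releases neutrophils from the marrow, lay at 9.96 and 9.48 in KO LSK and 8.79 and 8.40 in KO GMP, and at 5.73 and 5.10 in Het LSK and 6.20 and 6.24 in Het GMP. It fell by 1.13 in KO and rose by 0.81 in Het, a difference of -1.93 ± 0.33 (adjusted p = 0.0204), which was lost without the second Het LSK, either Het GMP or the second KO GMP array. Its KO call was lost without the first KO LSK, either Het GMP or either KO GMP array. Clec4e, a lectin receptor for damaged cells and mycobacteria, lay at 8.79 and 8.79 in KO LSK and 7.52 and 7.14 in KO GMP and fell by 1.46 (adjusted p = 9.58e-04), where Het differed by 0.28. All 4 KO arrays were above all 4 Het arrays for both genes. Hdc, which makes histamine and is also a basophil and mast cell gene, rose by 1.82 ± 0.27 from 8.12 and 8.12, less than the 3.72 of Het (gap -1.91 ± 0.38, adjusted p = 0.0402, lost without any KO array or either Het GMP array). Pilra, an inhibitory receptor, rose by 0.67 ± 0.15 in KO and by 2.01 in Het. Its gap of -1.34 ± 0.21 had an adjusted p of 0.0144, lost without either Het GMP or the second KO GMP array, and its KO call was lost without any KO array or either Het GMP array.

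The regulators of the granulocyte path split. The list of 23 granulocyte-macrophage transcription factors also holds Trib1, a pseudokinase. Of these 23 genes 6 rose in KO, Trib1 among them, and 1 fell, with a median difference of -0.03. In Het 8 rose and 5 fell. Cebpe, needed for the secondary granule stage, lay at 5.87 and 5.73 in KO LSK and 8.95 and 8.73 in KO GMP, a rise of 3.04 ± 0.25 (adjusted p = 2.18e-04) beside 3.15 in Het. Cebpd, a further C/EBP factor, lay at 5.78 and 5.65 in KO LSK and 7.89 and 7.74 in KO GMP and rose by 2.10 ± 0.15, and by 2.10 in Het. Gfi1, the repressor that favours neutrophils over monocytes, lay at 5.10 and 4.95 in KO LSK and 7.15 and 6.97 in KO GMP, a rise of 2.04 ± 0.15 (adjusted p = 8.31e-05) beside 1.23 in Het. For Cebpd and Gfi1 the ranges of KO GMP and Het GMP overlapped, and for Cebpe all 4 GMP values lay between 8.73 and 8.95.

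Spi1, which encodes PU.1, rose by 0.76 ± 0.17 from 8.74 and 8.26 in KO LSK and 9.34 and 9.18 in KO GMP, at adjusted p = 0.0331, a call lost when any array other than the first KO LSK array was left out. Trib1, a pseudokinase that lowers C/EBPα protein, lay at 4.79 and 4.87 in KO LSK and 6.49 and 6.25 in KO GMP, a rise of 1.54 ± 0.22 where Het differed by 0.27; the difference between the transitions was 1.27 ± 0.30 (adjusted p = 0.0782; called without the second Het GMP array, and at 0.0382 with the replicate block). Bcl6, a repressor, rose by 1.04 ± 0.20, a call lost without either KO GMP array, and Rara, the retinoic acid receptor alpha, fell by 0.96, lost without the second KO GMP array.

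Cebpa, the factor that starts the GMP stage, did not pass the test. It lay at 6.10 and 6.21 in KO LSK and 6.84 and 6.32 in KO GMP, and at 6.50 and 6.61 in Het LSK and 8.26 and 8.23 in Het GMP. Both KO GMP arrays were above both KO LSK arrays, the second only just, and below both Het GMP arrays. The KO difference was 0.43 ± 0.17 (adjusted p = 0.203), where Het rose by 1.69 (adjusted p = 1.84e-04). The gap between the transitions of -1.27 ± 0.24 was called at adjusted p = 0.0294, and the call was kept without the first KO LSK or the first KO GMP array and lost without each of the other 6 arrays. Irf8, the monocyte and dendritic cell factor, lay at 5.90 and 5.49 in KO LSK and 6.02 and 5.27 in KO GMP, with overlapping groups and a difference of -0.05 ± 0.24. In Het it rose by 1.24, and the gap of -1.29 ± 0.35 did not pass (adjusted p = 0.113; called without the first KO GMP array, and at 0.0337 with the replicate block). Klf4, a monocyte factor, differed by -0.55 ± 0.17 in KO and 0.41 in Het, a gap of -0.96 ± 0.24 (adjusted p = 0.0844; called without the second KO LSK array). Cebpb differed by 0.46 ± 0.14, Myb by 0.26 ± 0.16 and Runx1 by -0.45 ± 0.16, none called. Nr4a1, an immediate early factor, differed by -0.90 ± 0.34, where Het fell by 3.21.

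**Figure D2:**
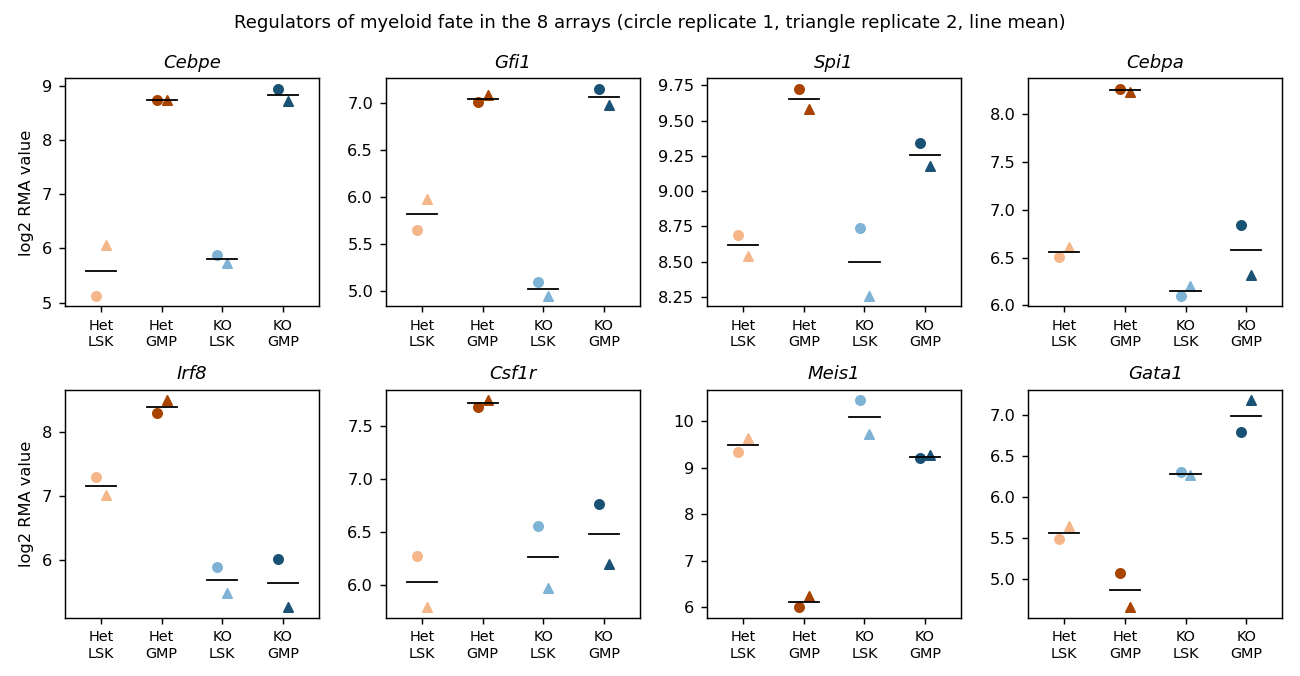
Levels of 8 regulators in the 8 arrays on the log2 RMA scale; each panel has its own vertical range that does not start at 0, circles are replicate 1, triangles replicate 2 and lines the group means. Cebpe and Gfi1 rose in both genotypes, whereas Cebpa, Irf8 and Csf1r rose in Het and were not called in KO, and Meis1 ended at 9.20 and 9.27 in KO GMP and at 6.001 and 6.24 in Het GMP.

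The receptors for the cytokines of this path were mostly not called. Of 17 myeloid cytokine receptor genes 3 rose and 2 fell in KO, and 7 rose and 2 fell in Het. The shares of all rows that rose and fell were 3.66% and 2.39% in KO and 7.90% and 9.60% in Het. Csf2ra, the alpha chain for GM-CSF, lay at 6.45 and 6.54 in KO LSK and 7.57 and 7.29 in KO GMP and rose by 0.94 ± 0.13, and Ifngr1, for interferon gamma, rose by 1.33 ± 0.17. Csf3r, the receptor for G-CSF, was at 9.36 and 8.89 in KO LSK and 9.18 and 9.05 in KO GMP, a difference of -0.01 ± 0.16, and Csf2rb differed by -0.01 ± 0.26. Csf1r, the receptor for M-CSF and a mark of the monocyte path, lay at 6.55 and 5.97 in KO LSK and 6.77 and 6.19 in KO GMP, overlapping groups with a difference of 0.22 ± 0.25 (adjusted p = 0.703). In Het it rose by 1.68; the gap of -1.46 ± 0.35 had an adjusted p of 0.0826, was called without the second KO LSK array, and had 0.0193 with the replicate block. Cd33, a sialic acid lectin, rose by 1.56 ± 0.26 from 6.23 and 5.88 in KO LSK and 7.999 and 7.24 in KO GMP (not called without the first KO GMP array) and fell in Het, from 7.92 and 8.31 to 6.49 and 6.87, a gap of 3.001 ± 0.37 (adjusted p = 0.00523). Il6st and Il17ra fell by 1.01 and 0.65; Il17ra was not called without the first KO LSK array or either KO GMP array.

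Of 23 adhesion, homing and chemokine receptor genes 1 rose and 3 fell in KO (3 rose without the first KO LSK array). Emb, embigin, an adhesion protein of the immunoglobulin family, lay at 5.62 and 5.18 in KO LSK and 8.36 and 7.90 in KO GMP and rose by 2.73 ± 0.19, where Het differed by 0.40; the gap was 2.33 ± 0.28 (adjusted p = 0.00466). The falls were of Jam3, a junctional adhesion molecule, by 1.82, Cd200r1 by 1.27 and Cxcr2. Over all rows 3.66% rose and 2.39% fell in KO. Ccr2, the chemokine receptor that brings monocytes out of the marrow, chosen after its values were seen, lay at 5.05 and 5.10 in KO LSK and 5.20 and 4.71 in KO GMP, with overlapping groups, and rose in Het by 2.28, a gap of -2.40 ± 0.25 (adjusted p = 0.00264). Of 11 other hematopoietic cytokine receptor genes 2 rose and 4 fell in KO, none rose and 6 fell in Het: Lifr, the receptor for leukemia inhibitory factor, rose by 1.03 ± 0.14 in KO, where Het differed by -0.38 (gap 1.42 ± 0.20, adjusted p = 0.00784), and Il18r1 fell by 0.64, a call lost when any 1 array was left out and with the replicate block (adjusted p = 0.0516). With that block the difference between the transitions was called for Cd200r1 (adjusted p = 0.0432). Those falls counted 2 without the first KO LSK or the second KO GMP array. Of 9 heme synthesis genes 2 rose, Alas1 and Tmem14c, a mitochondrial carrier of heme precursors (by 0.75 ± 0.18, lost without the first KO LSK, either Het GMP or either KO GMP array).

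Monocyte genes were mixed. Of 27 monocyte, macrophage and dendritic cell genes 6 rose and 1 fell in KO, with a median difference of 0.04. In Het 9 rose and 3 fell. Over all rows 3.66% rose and 2.39% fell in KO, and 7.90% and 9.60% in Het. F13a1, coagulation factor XIII A chain, a gene of monocytes and of megakaryocytes, lay at 5.54 and 5.32 in KO LSK and 9.32 and 8.73 in KO GMP and rose by 3.60 ± 0.23 beside 4.06 in Het, and Ccl9 rose by 2.42 ± 0.30 (its gap to Het was called at 0.0418 with the replicate block). Ccl3, a chemokine, rose by 2.81 ± 0.36 from 4.96 and 4.30 in KO LSK and 7.68 and 7.20 in KO GMP, while Het fell from 9.44 and 10.46 to 8.16 and 8.75; the transitions differed by 4.30 ± 0.51 (adjusted p = 0.00466). Pla2g7, a lipase of platelet-activating factor, fell by 2.30. Of 27 phagocytic and pattern recognition receptor genes 13 rose and 2 fell in Het, and 7 rose and 2 fell in KO. Among the KO rises were Clec4a2 by 3.27 ± 0.31, Cd14, the lipopolysaccharide co-receptor, by 2.91 ± 0.23, Tlr1 by 2.08 ± 0.27 and Fcgr4 by 2.003 ± 0.16. Of the KO falls, that of Tlr7 was 1.81. The falls counted 1 without either LSK array of either genotype or either KO GMP array.

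What was switched off in KO was a smaller set. Of 28 stem cell genes 12 fell and 2 rose, with a median difference of -0.52. In Het 26 of 28 fell, and the difference between the transitions was called for 12, all with a positive KO minus Het value. Emcn, endomucin, lay at 8.11 and 7.91 in KO LSK and 5.92 and 5.98 in KO GMP, and fell by 2.06 (adjusted p = 5.02e-05). Het reached 3.65 and 3.52 in GMP, and its fall exceeded that of KO by 1.86 ± 0.19 (adjusted p = 0.00264). Angpt1 fell by 1.36, Hlf, a stem cell leucine zipper factor, by 1.39, Gata3 by 1.24, Myct1 by 1.21 and Tek, the angiopoietin receptor, by 1.07. Meis1, the Hox cofactor, lay at 10.44 and 9.72 in KO LSK and 9.20 and 9.27 in KO GMP, a difference of -0.85 ± 0.22 (adjusted p = 0.0637, and 0.0428 with the replicate block), where Het fell from 9.33 and 9.64 to 6.001 and 6.24. The gap of 2.52 ± 0.32 was called (adjusted p = 0.00583) and kept with each array left out. Mecom lay at 4.75 and 3.82 in KO LSK and 3.18 and 3.19 in KO GMP, already lower in KO LSK than the 6.54 and 6.96 of Het LSK, and fell by 1.10. The 12 falls were 6 without the first KO LSK array and 5 without either KO GMP array; With the replicate block the gaps of Hlf and Angpt1 to Het were called (adjusted p = 0.0136 and 0.0121). Hlf was lost without either KO GMP array, Angpt1 without either KO LSK or the first KO GMP array, and Mecom (adjusted p = 0.0453) without any 1 array other than the second KO LSK array.

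Of 18 Hox genes and cofactors 8 fell in Het and 3 in KO, where 2.39% of all rows fell. The KO falls were of Hoxa9 by 1.16, Hoxa5 by 0.89 (its gap to Het called at 0.0111 with the replicate block) and Hoxa10 by 0.80. The count was 1 without the first KO LSK array, either Het GMP array or the second KO GMP array, and 5 without the second KO LSK array. Of 24 stem and megakaryocyte-erythroid transcription factors 6 fell and 1 rose (Zbtb16, by 0.66, lost without any KO array or either Het GMP array), where 19 fell in Het. Gata2 differed by -0.95 ± 0.27, Gfi1b by -0.21 ± 0.24, Lmo2 by 0.14 ± 0.22 and Erg by -0.75 ± 0.24, none called in KO, and all 4 fell in Het. The limma difference between the transitions was not called for Gata2 (adjusted p = 0.293), Erg (adjusted p = 0.394) or Gfi1b (adjusted p = 0.0869). With the replicate block Gata2 (adjusted p = 0.0247) and Erg (adjusted p = 0.0174) were called lower in KO, and Gfi1b in the difference between the transitions (adjusted p = 0.0443). Zfpm1, the partner of GATA1, lay at 7.74 and 7.59 in KO LSK and 7.73 and 7.91 in KO GMP, with overlapping groups, and fell in Het from 7.53 and 7.79 to 5.56 and 5.42; the gap was 2.32 ± 0.20 (adjusted p = 0.00134). Gata1 lay at 6.30 and 6.26 in KO LSK and 6.79 and 7.18 in KO GMP, a difference of 0.70 ± 0.18 (adjusted p = 0.0535), where Het fell by 0.70, a gap of 1.41 ± 0.25 (adjusted p = 0.024). That call on Gata1 was lost without either Het LSK, the second KO LSK, the second Het GMP or the second KO GMP array. The list's falls counted 2 without the second KO GMP array, 3 without the first and 9 without the second KO LSK array.

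Many lymphoid genes differed between the 2 transitions. Of 26 lymphoid priming genes 4 fell in KO (Flt3, Cd27, Sox4 and Tcf4), with a median of -0.33, and 20 fell in Het. In the difference between the transitions 14 were called, all with a positive KO minus Het value. The mean level of the list was 6.18 and 5.78 in KO LSK, below the 7.43 and 7.42 of Het LSK. In GMP it was 5.63 and 5.45 in KO and 5.48 and 5.58 in Het. Flt3, a receptor that marks lymphoid-primed progenitors, lay at 7.09 and 6.56 in KO LSK and 5.51 and 4.66 in KO GMP, and at 10.20 and 10.27 in Het LSK and 5.75 and 6.23 in Het GMP. It fell by 1.74 in KO, from a start below Het LSK, and ended below Het GMP. Cd27 fell by 1.43, from 9.03 and 8.76 in KO LSK and 7.57 and 7.36 in KO GMP. Dntt, the nucleotide-adding enzyme of antigen receptor joining, lay at 6.33 and 4.56 in KO LSK and 3.47 and 3.98 in KO GMP, with LSK arrays far apart, and at 10.78 and 10.49 in Het LSK and 3.10 and 3.79 in Het GMP. Its gap of 5.47 ± 0.69 (adjusted p = 0.00583) was the largest among the named genes. Il7r lay between 4.98 and 5.93 in the 4 KO arrays, and fell in Het from 7.42 and 7.16 to 3.40 and 3.42. Ebf1 and Blnk, of the B cell path, differed by -0.51 ± 0.21 and -0.33 ± 0.30 in KO. No B cell gene of 15 and no T or NK cell gene of 22 was called in KO, where 9 and 11 fell in Het and 1 T or NK cell gene rose. At an unadjusted p under 0.05, limma gave 1 of the B cell and 3 of the T and NK cell genes lower in KO GMP, and 1 B cell gene was called without the second KO LSK array. The list of lymphoid falls in KO counted 7 without the second KO LSK array and 2 without the second KO GMP array.

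Some genes of antigen presentation and of the interferon response fell in KO GMP. Of 8 MHC class II genes 5 fell, none rose, with a median of -0.97; H2-Aa lay at 6.47 and 6.76 in KO LSK and 4.40 and 4.12 in KO GMP and fell by 2.36 beside a Het difference of -2.25. Only 1 was called without the second KO GMP array. Of 22 interferon response genes 6 fell and 16 fell in Het: Mx2 by 1.73, Iigp1 by 1.44, Oas2 by 1.20 and Oasl2 by 0.90 in KO. Without either KO GMP array the count was 1, and without the first KO LSK array 3. Among the 15 largest falls of all were 3 immunity-associated GTPases, Gimap4, Gimap6 and Gimap8. Gimap4 lay at 8.09 and 7.73 in KO LSK and 3.52 and 3.77 in KO GMP, a fall of 4.27 (adjusted p = 4.18e-06), and at 5.77 and 5.50 in Het LSK and 3.27 and 3.48 in Het GMP; the KO GMP values ended near those of Het GMP. Gimap6 fell by 2.32 in KO, to 6.83 and 6.44, and to 4.04 and 3.92 in Het GMP. The others of these falls were of Stxbp4, a syntaxin-binding protein, by 2.86, P2rx7, an ATP-gated channel, by 2.61, Cnrip1 by 2.36, Stard9 by 2.27, P2ry10b by 2.07 and the interferon-inducible genes Ifi206 and Ifi27l2a by 2.17 and 2.16. P2rx7 and Stard9 were lost without the second KO GMP array, and with the replicate block their gaps to Het were called (adjusted p = 0.00927 and 0.0278).

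**Figure D3:**
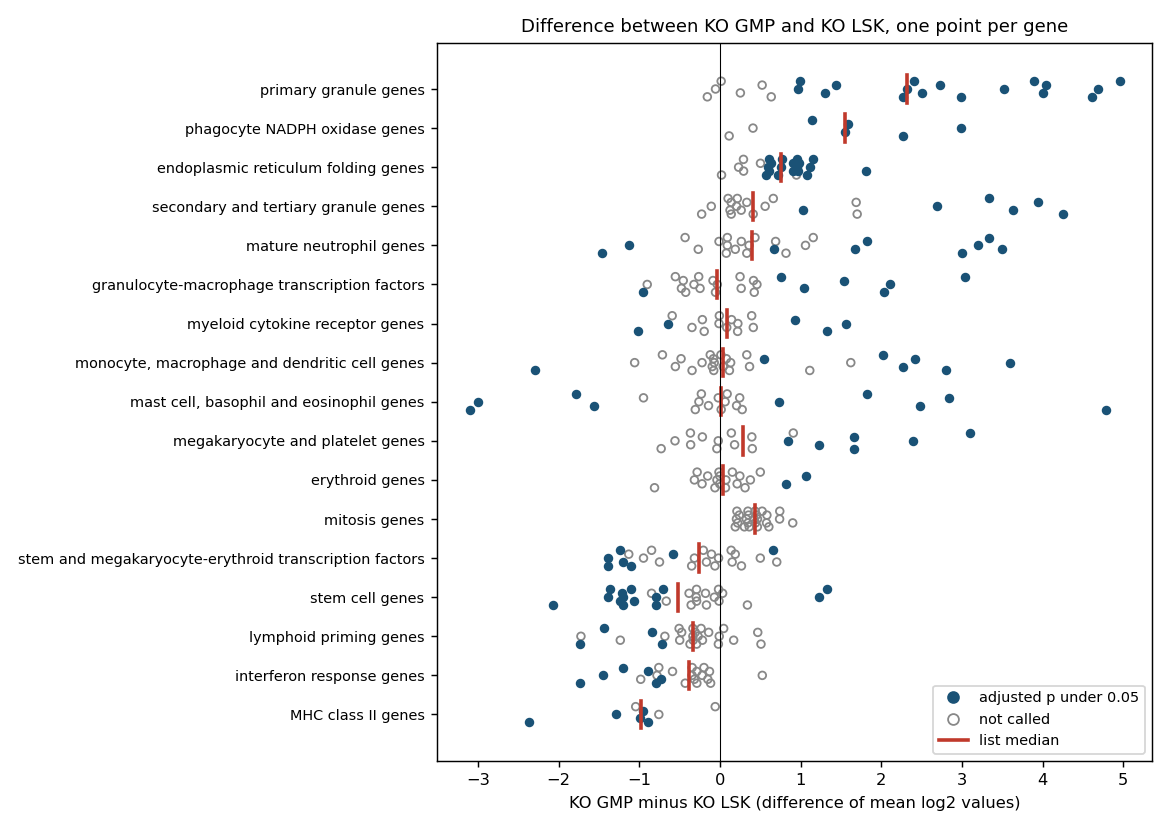
Difference between KO GMP and KO LSK on the log2 scale for each measured gene of 17 lists; filled points have an adjusted p under 0.05, open points were not called and the red bar is the list median. The primary granule list has its median at 2.32 and 17 of 23 filled points, and the 24 mitosis genes lie above 0 with none called.

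Markers of other blood cells moved between the KO populations as well. Of 18 megakaryocyte and platelet genes 6 rose, none fell, where 10 fell and none rose in Het, and 10 were called in the difference between the transitions. Pf4, platelet factor 4, lay at 7.33 and 7.70 in KO LSK and 9.67 and 10.14 in KO GMP, and at 8.69 and 8.84 in Het LSK and 7.41 and 7.95 in Het GMP. It rose by 2.40 ± 0.22 in KO and fell in Het, a gap of 3.48 ± 0.32 (adjusted p = 0.00158). Thbs1, thrombospondin 1, rose by 3.10 ± 0.16, and Ppbp, Gp9 and Vwf by 1.66 ± 0.21, 1.66 ± 0.20 and 1.22 ± 0.21. The mean level over the 18 genes was 7.78 and 7.58 in KO LSK and 8.14 and 8.41 in KO GMP. In Het it was 6.29 and 6.38 in LSK and 5.16 and 5.50 in GMP. In sorted populations measured in bulk, a larger share of a cell type and more RNA per cell cannot be told apart. Of 20 erythroid genes 1 rose and 5 fell in Het. In KO 2 rose, Tfrc by 1.06 ± 0.23 and Epor by 0.82 ± 0.14, where 3.66% of all rows rose, and neither was called without the second KO GMP array.

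Of 21 mast cell, basophil and eosinophil genes 11 rose and 2 fell in Het, and 5 rose and 4 fell in KO. The eosinophil granule genes Prg2 and Prg3 and the basophil protease Mcpt8 rose, Prg3 by 2.84 ± 0.15 from 4.198 and 4.197 in KO LSK and 7.17 and 6.90 in KO GMP and Mcpt8 by 2.48 ± 0.25. Cpa3, the mast cell carboxypeptidase, lay at 10.90 and 10.99 in KO LSK and 9.44 and 8.88 in KO GMP, and at 6.98 and 7.08 in Het LSK and 7.93 and 8.54 in Het GMP. All 4 KO arrays were above all 4 Het arrays, and Cpa3 fell by 1.79 in KO and rose by 1.21 in Het (gap -2.99 ± 0.32, adjusted p = 0.00294). Cd200r3, a receptor of mast cells and basophils, lay at 6.98 and 6.38 in KO LSK and 4.13 and 3.03 in KO GMP and fell by 3.10, and its neighbour in the family, Cd200r4, fell by 2.997. The mean level over the 21 genes was 5.54 and 5.39 in KO LSK and 4.71 and 4.98 in Het LSK. In GMP it was 5.70 and 5.43 in KO and 5.64 and 5.68 in Het. The part of these cells in the granulocyte results was not tested. Of 21 endothelial and stromal genes 1 rose (Kdr) and 2 fell (Emcn and Eng), where 3.66% of all rows rose and 2.39% fell. Kdr and Eng were not called without either KO GMP array.

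No gene of the proliferation lists was called between the KO populations with the arrays taken as independent, while some genes of metabolism were. Over all rows 3.66% rose and 2.39% fell. Of 24 mitosis genes none was called, with a median difference of 0.43; Plk1 lay at 6.94 and 7.80 in KO LSK and 8.06 and 8.49 in KO GMP, the first KO LSK array standing lowest. With the replicate block 3 mitosis genes, among them Plk1 (adjusted p = 0.0131), and 2 replication genes were called higher and 2 immediate early genes lower. Without the second KO LSK array, the first, the lower of the 2 for both lists, stood alone in its group. Many mitosis and some DNA replication genes were called higher in that fit, but not in the fit without the first array. The mean level of the mitosis list was 7.40 and 8.29 in KO LSK and 8.14 and 8.43 in KO GMP. No gene was called among 23 ribosome biogenesis genes with Myc, 21 immediate early genes, 12 cyclin D and inhibitor genes or 6 core-binding factor genes. In Het 4, 0, 0 and 0 of these rose and 0, 11, 3 and 2 fell. At an unadjusted p under 0.05, limma gave in KO 5 mitosis, 3 replication and 1 ribosome gene higher, 11 immediate early genes and 1 core-binding factor gene lower, and 1 gene each way among the cyclins and inhibitors; over all rows 4189 passed. Of 14 glycolysis genes 4 rose (2 when any array but the first KO LSK array was left out), Hk3 and Pfkp most, the latter by 0.88 ± 0.12, and of 20 oxidative phosphorylation genes 1, Uqcrc1, by 0.62 ± 0.13, lost without the first KO LSK or either KO GMP array.

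The rows called in each genotype overlapped in part. Of the 797 rows higher in KO GMP, 634 were also called higher in Het, 79.5% of the KO and 36.8% of the Het rows. Of the 521 lower rows, 366 were also called lower in Het, 70.2% of the KO and 17.5% of the Het rows. The shares of the Het rows rest on the scaling: with each array's median subtracted they were 22.0% of the higher and 22.1% of the lower rows, and 84.3% and 67.2% of the KO rows. Rows called higher in Het had a median of 0.76 there and of 0.45 in KO, and 92.7% of them had the same sign in KO. Rows called lower in Het had a median of -0.86 there and of -0.31 in KO, and 86.5% had the same sign. These rows were chosen by the Het comparison, which favours the larger Het value. The KO and Het differences correlated at r = 0.647 and rho = 0.512 over 21789 rows, which are not independent replicates.

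The difference between the transitions itself was called for 499 rows (2.29%), 368 higher in KO (1.69%) and 131 lower (0.601%). It was called for 331 of the 2092 rows lower in Het (15.8%) and for 120 of the 1721 rows higher in Het (6.97%). With each array's median subtracted, the higher calls were 58.4% in place of 73.7% of the difference, and 67.1% in place of 45.1% of the Het step, where that scaling moved the median of all rows from 0.01 to 0.16. The KO split was 61.9% higher with that scaling, beside 60.5%. The count of 499 was 294 without the second Het LSK array, 223 and 250 without the first and the second Het GMP array and 308 and 258 without the first and the second KO GMP array.

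Of the 75 genes on the 4 granulocyte lists (primary, secondary and tertiary, mature and oxidase) 35 rose in KO and 45 in Het, and all 35 were among the 45. Over all rows 3.66% rose in KO and 7.90% in Het. The difference was called for 8 of the 75, and for 499 of all 21789 rows (2.29%). Other genes rose in Het with no call in KO. Gpr141, an orphan receptor, lay at 2.50 and 2.64 in KO LSK and 2.95 and 2.59 in KO GMP, all near the bottom of the scale, and rose in Het to 5.73 and 5.77, a gap of -2.80 ± 0.23 (adjusted p = 0.00128). Aoah, which deacylates lipopolysaccharide, lay at 3.26 and 3.16 in KO LSK and 3.99 and 3.18 in KO GMP and rose in Het to 7.27 and 7.40, a gap of -2.74 ± 0.35. Ncam1, an adhesion molecule, differed by -0.13 ± 0.23 in KO and rose by 2.42 in Het. Fcgr2b, one of the CD16/32 genes, differed by 0.54 ± 0.16, from KO LSK values of 8.14 and 7.89 that were above the Het GMP values. Papss2 was high in KO LSK already, at 6.51 and 7.82, and rose by 3.17 in Het. Fgf10, a growth factor, fell by 1.98 in KO and differed by 0.46 in Het (gap -2.43 ± 0.36, adjusted p = 0.0106, lost without either Het GMP array), and Ly6a2, of the Ly6 family, differed by 0.61 ± 0.47 in KO and rose in Het by 3.85 (gap -3.24 ± 0.67, adjusted p = 0.0459, kept without the second Het LSK or the first KO GMP array and lost without any of the other 6). Among the largest gaps the other way, Het fell by more: Wfdc17, a small secreted protein, differed by -1.17 ± 0.38 in KO (called with the replicate block, adjusted p = 0.0376), Mmrn1, a platelet and endothelial protein, by -0.02 ± 0.21 and Vpreb3, of the pre-B cell receptor, by -0.43 ± 0.23, with gaps of 4.27 ± 0.54, 3.61 ± 0.30 and 3.29 ± 0.32.

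In 23 rows, of 22 genes, both steps were called in opposite directions, 19 rows higher in KO and lower in Het, and 4 the reverse. Pf4, Gp9, Epor, Cd33, Ccl3 and Pdzk1ip1 were among the former, and Cpa3 and Cxcr2 among the latter. Pdzk1ip1, a membrane-associated protein marking stem cells and erythroid progenitors, lay at 6.47 and 5.92 in KO LSK and 7.75 and 7.30 in KO GMP, and at 7.63 and 8.31 in Het LSK and 5.38 and 5.78 in Het GMP. It rose by 1.33 ± 0.27 in KO, lost without the second KO LSK or either KO GMP array, and the gap of 3.71 ± 0.39 was kept with each array left out.

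**Figure D4:**
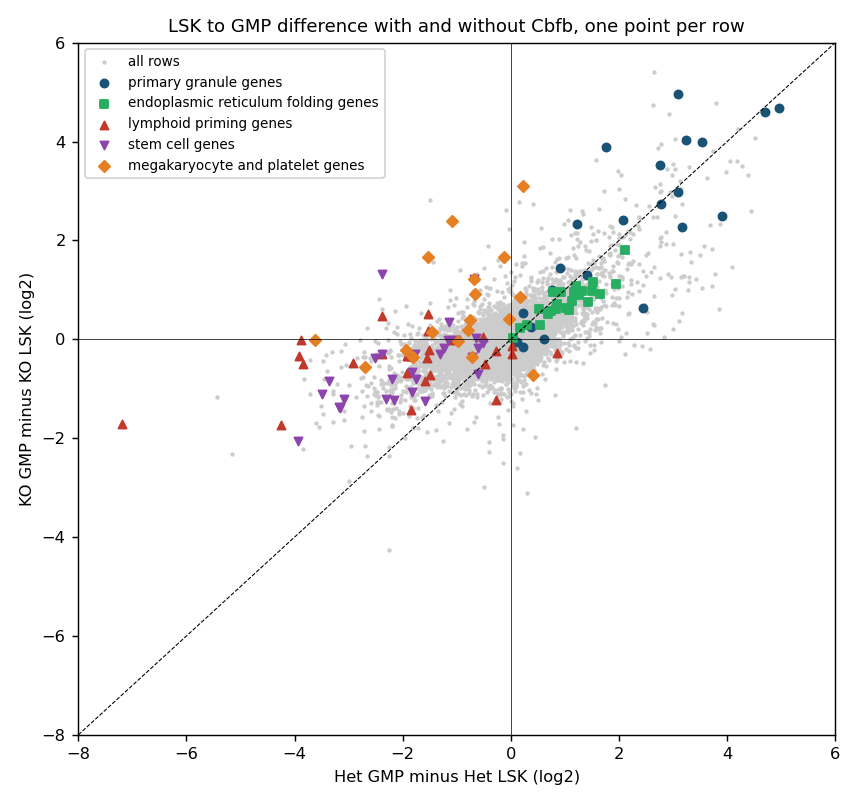
Difference between GMP and LSK in KO (vertical) against the same in Het (horizontal) on the log2 scale, 1 point for each of 21789 rows, with 5 lists in colour and the line of equal differences dashed. Primary granule genes lie on both sides of the line (median gap -0.05), with gaps from -1.40 to 2.14 among the 17 called in both genotypes. Many lymphoid priming and stem cell genes lie above the line at the left, and several megakaryocyte genes lie above 0 in KO and below 0 in Het.

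**Figure D5:**
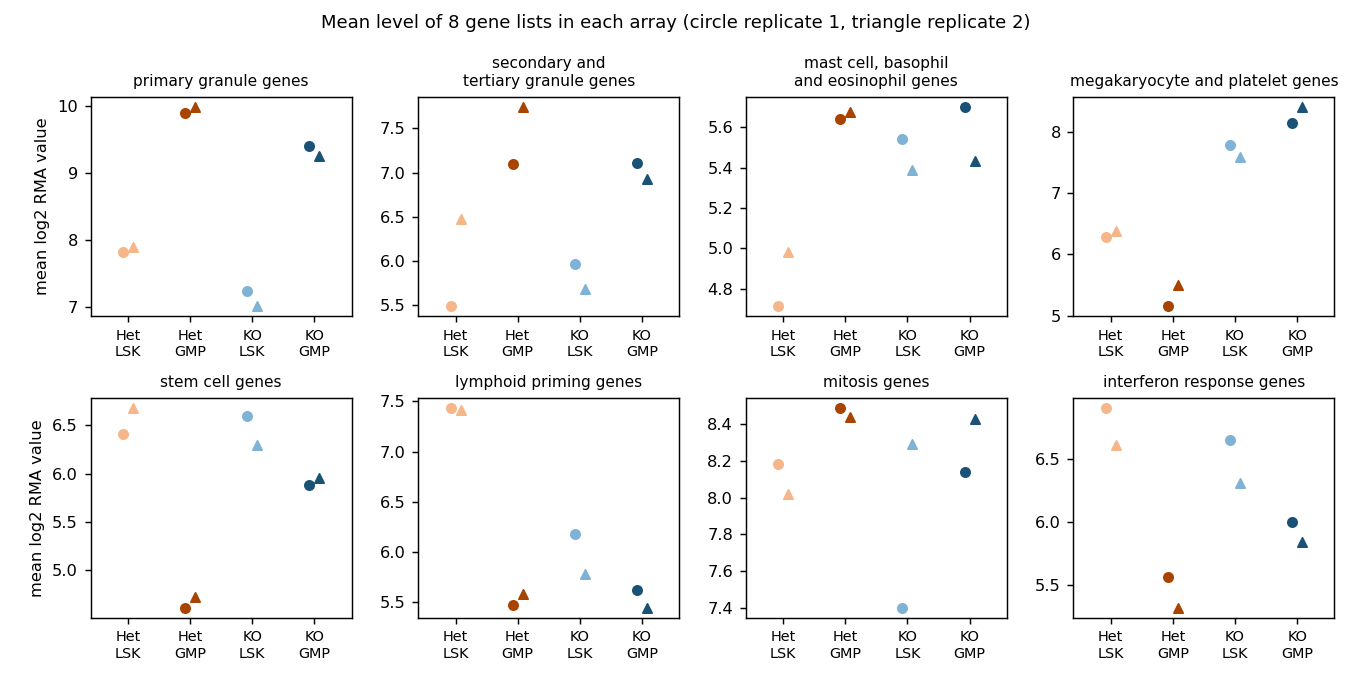
Mean log2 RMA level over the measured genes of 8 lists in each of the 8 arrays; each panel has its own vertical range that does not start at 0, circles are replicate 1 and triangles replicate 2. The primary granule list rises from 7.24 and 7.01 to 9.41 and 9.27 in KO, and the mitosis list is lowest in the first KO LSK array.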

How the data were processed

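Affymetrix Mouse Gene 1.0 ST arrays were hybridised with amplified RNA (NucleoSpin RNA XS kit, Nugen Pico amplification) from sorted LSK and GMP cells, per the labels' protocols. The authors deposited log2 values made with RMA, per the submitters' processing notes; software version and genome build: not given in the sources used here. RMA subtracts background, equalises array distributions and gives no detection call, so a low value is not evidence of absence, and the small number of arrays, 2 a group, limits the precision. Of 35556 rows, 21789 carried 1 symbol in the platform annotation, 1621 several and 12146 none. Of these 21789, 21698 matched RefSeq (GRCm38.p6, used for names) by gene ID; where a gene had several rows, the row with the highest mean was used for lists. Rows of closely related genes (Gimap, Cd200r, Clec4, H2) can share signal, which was not tested.

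limma 3.58.1 in R 4.3.3 fitted 1 mean for each of 4 groups over the 8 arrays (4 residual and 4.83 prior degrees of freedom), with contrasts for KO GMP minus KO LSK, Het GMP minus Het LSK and their difference. Tests are two-sided, adjusted by Benjamini-Hochberg over all 21789 rows and called under 0.05. The fit was tested on simulated data. Lists are described by counts and medians with no test of their own. Members and lists were chosen with earlier results of these data known. The named genes include the 15 largest rises and falls in KO, among called rows whose 2 groups do not overlap, the 10 largest called differences between transitions each way (no overlap rule was applied to these, which compare 4 groups), members of the granulocyte, regulator, receptor, gate and core-binding factor lists, and, of other lists, up to 5 called members with the largest differences (2 where none was called); predicted genes were only counted. Alternatives were all rows, rows above the median mean, subtracted medians, quantile normalization, an intensity trend, the arrays of 1 genotype alone, a replicate block, each array left out, and a 2-fold minimum. LSK and GMP cells of a genotype came from the same 2 mice, per the labels' design text, which does not say that a replicate number marks a mouse; same-numbered LSK and GMP arrays had deviations from their group means that correlated at 0.179 in KO and 0.133 in Het.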

Additional observations from a re-analysis of the deposited data

Results flagged for a closer look

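The test of the difference between the KO and the Het transition (limma, adjusted p under 0.05) singled out 499 of 21789 rows, and 55 of the genes named above. Each value here is the KO difference minus the Het difference on the log2 scale, so a positive value means that the gene rose more, or fell less, from LSK to GMP in KO. Of the calls on named genes, 36 were kept with each array left out in turn.

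Lymphoid genes had positive values: Dntt 5.47, Il7r 3.86, Blnk 3.58, Ebf1 3.34, Vpreb3 3.29 and Flt3 2.51. So had genes of stem cells, erythroid progenitors and cytokine receptors: Pdzk1ip1 3.71, Meis1 2.52, Mecom 2.39, Zfpm1 2.32, Myct1 1.88, Emcn 1.86, Lifr 1.42, Gata1 1.41 and Epor 1.31. Among megakaryocyte and platelet genes the values were Mmrn1 3.61, Pf4 3.48, Gp9 3.20, Thbs1 2.87, Vwf 1.90 and Ppbp 1.80. The other positive values were Ccl3 4.30, Wfdc17 4.27, Cd33 3.001, Gimap6 2.83, Atp8b4 2.76, Emb 2.33, Nr4a1 2.31, Nkg7 2.14, B4galt6 2.11, Anxa1 2.05, Iigp1 1.64 and Oasl2 1.46.

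Negative values, a smaller rise or a larger fall in KO, were found for these granulocyte genes, Fc receptors and regulators: Cxcr2 -1.93, Hdc -1.91, Fcgr3 -1.84, Cst7 -1.80, Clec4e -1.74, Fcgr2b -1.64, Pilra -1.34 and Cebpa -1.27. The call on Fcgr3 was lost without any KO array, the first Het LSK array or either Het GMP array. It was also lost over all rows and with quantile normalization. The others were Cd200r3 -3.41, Ly6a2 -3.24, Cpa3 -2.99, Gpr141 -2.80, Aoah -2.74, Papss2 -2.64, Ncam1 -2.55, Cd200r4 -2.50, Pla2g7 -2.47, Fgf10 -2.43, Ccr2 -2.40, Gimap4 -2.01, P2ry10b -1.67 and Ero1a -0.83.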

How the results depend on the processing

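No called difference of a named gene changed sign under the settings run; the Het calls turned from mostly lower (45.1% higher) to mostly higher (67.1%) with array medians subtracted. The 1318 rows called in KO were 756 (493 higher and 263 lower) when the test took in all 35556 rows, 691 (456 and 235) when the 4 KO arrays were fitted alone, and 520 (348 and 172) at a minimum of 2-fold. With 1 array left out they were 579 to 1539, the higher rows 371 to 887 and the lower rows 173 to 652; an array left alone in its group is then assumed to vary like the others. The 3813 rows called in Het were 1348 at 2-fold and 2078 to 4486 with 1 array left out, and the 499 rows of the difference were 182 over all rows and 223 to 705 with 1 array left out. The 12 lower stem cell genes were 5 over all rows, 6 on the KO arrays alone and 5 to 12 with 1 array left out. The 18 higher folding genes were 9, 8 and 7 to 18, and 4 at 2-fold. The 17 higher primary granule genes were 14 to 18 and the 6 higher secondary and tertiary ones 4 to 7 with 1 array left out. Testing fewer rows (those above the median mean) gave 1639 calls in KO and an intensity trend 1624, quantile normalization gave 1240 and subtracted medians 1351. Of 131 named genes called in KO, 94 kept the call in every setting run, and of 55 called in the difference 25 did. The cause of lost calls was not tested, apart from the fewer arrays or the larger number of rows in the settings themselves. The difference was not run on 1 genotype alone, which cannot give it.

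With the replicate number as a replicate block within genotype, 1499 rows were called in KO (861 higher and 638 lower), 4162 in Het and 635 in the difference, with 18 primary granule, 8 secondary and tertiary granule, 12 stem cell and 19 folding genes. Calls of named genes that this block changed stand beside their values above.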
